A study of Mus musculus with 18 samples.

Results

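The genes described here encode the receptors and bridging ligands with which the retinal pigment epithelium (RPE) binds and takes up shed photoreceptor outer segments. They were chosen by name from this pathway: the receptor tyrosine kinases *Mertk*, *Axl* and *Tyro3*, the ligands *Gas6* and *Pros1*, the integrin subunits *Itgav* and *Itgb5*, the integrin ligand *Mfge8*, the scavenger receptor *Cd36*, and *Tub*, which encodes the bridging protein tubby. All 10 were found among the 47729 genes of the deposited table, and all 10 were among the 18958 genes with enough counts to be tested. The libraries came from 9 *rd1* (FVB/N) mice at P40, in which a mutation of *Pde6b* kills the rods of both eyes. AAV-Best1-GFP was given to both eyes, and the human Nrf2 cDNA, carried by AAV-Best1-Nrf2, was added on a single side. Eyes with the Nrf2 vector are called Best1-Nrf2 eyes (n = 9) and their partners control eyes (n = 9). The human Best1 promoter limits both transgenes to the RPE, and both eyes carried the GFP vector and the *rd1* mutation, so the comparison is between treatments of degenerating eyes and has no healthy eye. The Nrf2 vector used a different capsid from the GFP vector and added to the vector dose of the eye, and the effects of Nrf2 and of the added vector cannot be told apart.

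In the healthy eye, the RPE engulfs the tips of outer segments every day. The αvβ5 integrin, with Mfge8 as its bridge to phosphatidylserine on the outer segment, tethers the particle, and MerTK, activated by Gas6 or protein S (encoded by *Pros1*), drives its ingestion. Loss of MerTK leaves debris in the subretinal space and is followed by photoreceptor death. Axl and Tyro3 are the other two receptors of the TAM family, of which Axl binds Gas6 and Tyro3 binds both ligands, and macrophages and microglia use the same receptors to clear dying cells.

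Across these genes, the ligand *Gas6* rose in the Best1-Nrf2 eyes and no other gene passed the test. *Gas6* was 2.70 times as high as in the fellow eyes, and *Mertk*, its receptor, was lower in 8 of 9 mice without passing the adjusted threshold. The stretches of DNA upstream of these 2 genes are shown because *Gas6* was the gene called and *Mertk* encodes the receptor of the RPE to which its product binds. Each is the 250 bases before the RefSeq start site on the gene's own strand in GRCm38.p6, with the GC box in capitals, which here reads CCGCCC because the box GGGCGG lies on the opposite strand.
Gas6: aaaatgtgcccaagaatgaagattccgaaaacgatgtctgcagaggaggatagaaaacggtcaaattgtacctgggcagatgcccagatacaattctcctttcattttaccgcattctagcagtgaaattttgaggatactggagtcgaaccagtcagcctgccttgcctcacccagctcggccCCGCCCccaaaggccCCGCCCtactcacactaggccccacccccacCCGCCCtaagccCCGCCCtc
Mertk: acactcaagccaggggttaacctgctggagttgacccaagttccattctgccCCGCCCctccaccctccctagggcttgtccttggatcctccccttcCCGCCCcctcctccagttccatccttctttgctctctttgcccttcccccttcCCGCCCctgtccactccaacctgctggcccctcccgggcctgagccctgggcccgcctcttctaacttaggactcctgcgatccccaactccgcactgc

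The *Gas6* stretch lies at chr8:13494536-13494785 on the minus strand and held 4 GC boxes, and the *Mertk* stretch lies at chr2:128698665-128698914 on the plus strand and held 3. The core of the antioxidant response element, the sequence that Nrf2 binds, was searched on both strands as TGACNNNGC. It was found upstream of 0 of the 10 genes in this window, and upstream of 10.2% of all 32851 RefSeq promoters of the same length. The AP-1 site TGANTCA was found in 0 of 10 against 6.75% of all, and the E-box CACGTG in 0 of 10 against 6.02%. The GC box was found in 9 of 10 against 32.7% of all, with *Itgav* the exception. A match in such a window is a description of its letters, and a missing match says only that the letters are not within these bases.

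The libraries held between 18956748 and 49598700 counts, and the tested genes took 99.87% of them. *Nfe2l2*, the mouse gene of Nrf2, was used to check the labels, although the vector carried the human cDNA, whose reads are counted only where they align to the mouse gene. It lay between 76.7 and 134 CPM (counts scaled to the size of the library) in the control eyes and between 275 and 704 CPM in the Best1-Nrf2 eyes, higher in 9 of 9 mice (log2 fold change 2.29, SE 0.21, adjusted p = 6.21e-05, edgeR). The RPE label was checked against 20 RPE markers. Their summed level ran from 14327 to 71644 CPM in the control eyes, with a median of 44184 CPM. In the Best1-Nrf2 eyes it ran from 17890 to 80986 CPM, with a median of 22908 CPM, and it was higher in 4 of 9 mice. *Ttr* alone, which was not called, reached 39827 CPM in the control and 54488 CPM in the Best1-Nrf2 eyes. None of these 20 genes was at 0 in every library, but 5 fell, among them *Rpe65* (log2 fold change -2.81) and *Rlbp1* (-1.16), an enzyme and a retinoid carrier of the visual cycle. Of the 11 rod markers tested, 1 rose and 4 fell. The sum of the rod markers ran from 184 to 969 CPM in the control and from 287 to 606 CPM in the Best1-Nrf2 eyes, where *Rom1*, the marker that rose, made up most of it at 243 to 590 CPM. *Sag*, *Pde6g*, *Prph2* and *Gngt1* fell, with log2 fold changes of -5.03, -4.79, -4.65 and -4.34, and the mean log2 level of the rod markers was lower in 8 of 9 mice, mouse 6 being the exception.

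Other cell types differed between the eyes as well. Of 20 macrophage and microglia markers, 13 rose, and their sum ran from 160 to 517 CPM in the control and from 195 to 760 CPM in the Best1-Nrf2 eyes, higher in 7 of 9 mice. Much of the control sum was *Csf1r*, which reached 412 CPM there and was lower on average in the Best1-Nrf2 eyes without passing, and the mean log2 level of the list was higher in 9 of 9 mice. Of 11 cone markers, 10 fell, and their sum ran from 308 to 2298 CPM in the control and from 57.4 to 557 CPM in the Best1-Nrf2 eyes. Mouse 6 stood apart, since its Best1-Nrf2 eye held 557 CPM of cone markers against 308 CPM in its control eye, and it was the only mouse in which this sum was higher after Best1-Nrf2. Of 9 fibroblast markers 1 rose, and of 9 mural cell markers 2 fell. In the lists for Müller glia, endothelium, neural crest and Schwann cells, muscle and fat, and red blood cells, 0 of 34 genes tested passed with edgeR, 1 had an unadjusted p under 0.05, DESeq2 called 2 and limma 1. In bulk RNA, fewer cells of a type and less RNA per cell cannot be told apart, and the part of these cell types in the results below was not tested. The fits with marker covariates given below do not test it. The markers themselves differed between the eyes, so such a fit cannot separate them from the treatment.

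Of the 10 genes, 1 passed the adjusted threshold of 0.05 in the paired test (edgeR, mouse as a block, Benjamini-Hochberg over all 18958 genes), beside 4.25% of all genes tested. The call was an increase, beside 3.12% of all genes. A decrease was called for 0 of 10 by edgeR, beside 1.13% of all genes. DESeq2 and limma also called a decrease for 0 of 10, beside 538 and 502 of all 18958 genes. At an unadjusted p under 0.05 in edgeR stood 2 of the 10 genes, 1 of them lower, beside 2434 of all genes. The levels of the 2 groups overlapped for all 10 genes, and they did not overlap for 1.17% of all genes. The median log2 fold change was 0.16 over the 10 genes and -0.03 over all genes tested.

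**Figure D1:**
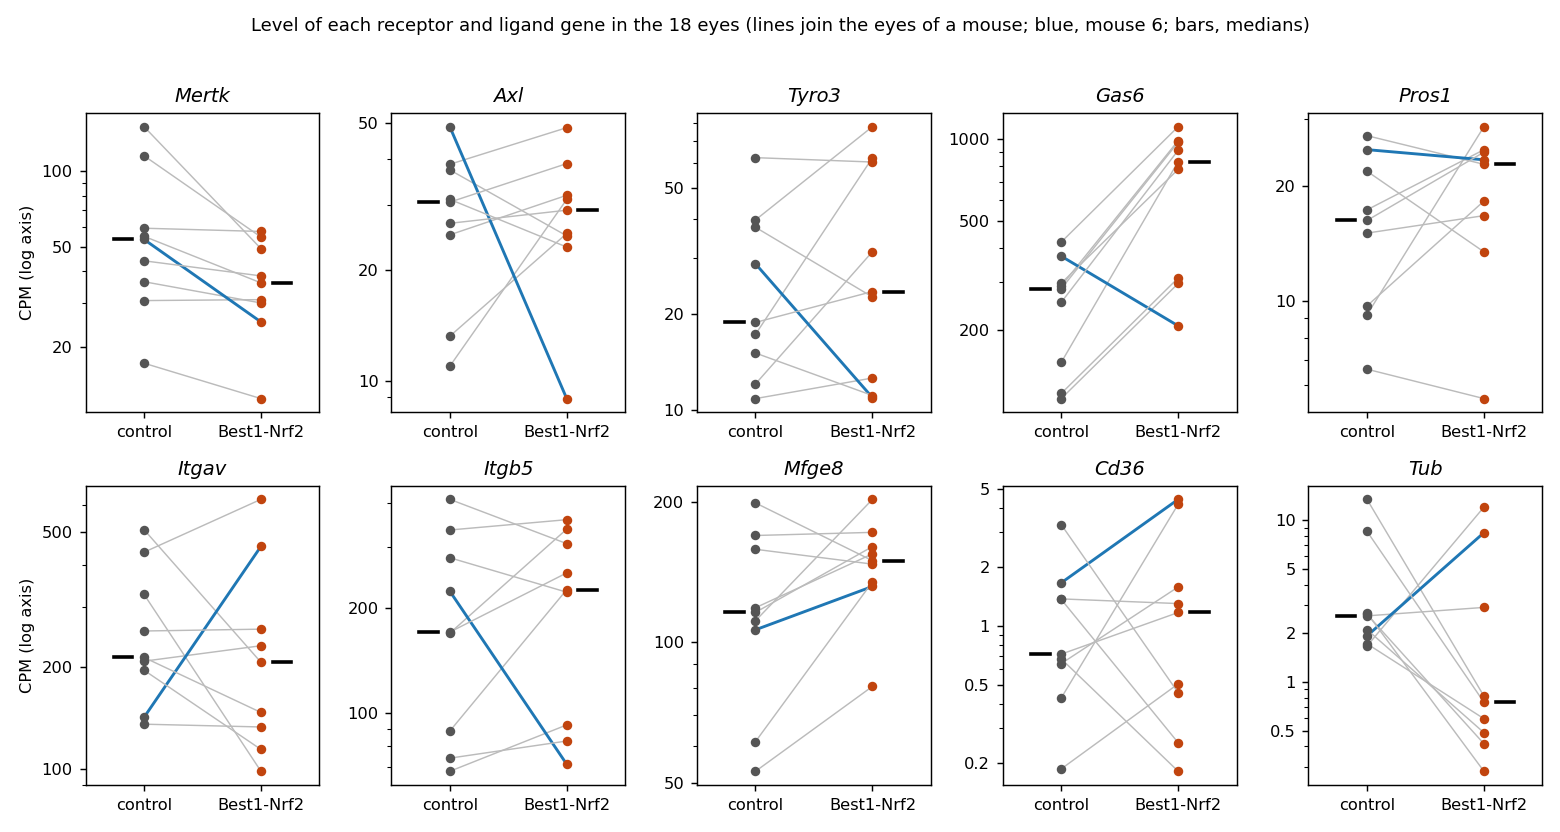
Level of each of the 10 genes in the 18 eyes, in CPM on a log axis with its own range for each gene. Lines join the eyes of a mouse, mouse 6 is in blue and bars mark group medians; every *Gas6* line but that of mouse 6 runs upward.

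The ligand *Gas6* (ENSMUSG00000031451, chr8:13465374-13494490, minus strand, 15 exons) encodes a vitamin K-dependent protein that links phosphatidylserine to the TAM receptors. In the control eyes of mice 1 to 9 it stood at 297, 291, 113, 420, 153, 373, 284, 118 and 253 CPM. In the Best1-Nrf2 eyes of the same mice it stood at 776, 988, 297, 1111, 828, 208, 975, 311 and 911 CPM. The mean went from 256 ± 109 to 712 ± 345 CPM (SD, n = 9 each), and 6 of the 9 treated eyes lay above every control eye. The exceptions were the treated eyes of mice 3, 6 and 8, of which those of mice 3 and 8 still lay above their own fellow eyes, which were the lowest of the control group. The log2 fold change was 1.43 (SE 0.29, 95% interval 0.81 to 2.06, adjusted p = 0.0123, edgeR).

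Within mice, the change in *Gas6* was narrow except for 1 animal. In 8 mice the treated eye was higher by 1.38 to 2.44 on the log2 scale, whereas in mouse 6 the difference was -0.85. Without mouse 6 the log2 fold change was 1.68 (adjusted p = 0.000157, edgeR), and without mice 6 and 8 it was 1.72 (adjusted p = 0.000326). When the mean log2 level of rod and cone markers was added as a covariate, the log2 fold change of *Gas6* was 0.02 (adjusted p = 0.985). With the RPE markers as covariate it was 1.42 (adjusted p = 0.199), and with the macrophage and microglia markers it was 1.14 (adjusted p = 0.999). Over all genes, those 3 fits called 29, 234 and 23 genes against 806 without a covariate. Each covariate itself differed between the eyes, so these fits cannot separate it from the treatment.

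*Gas6* overlaps *Tmem255b*, which lies on the opposite strand. That gene stood at 0.624 ± 0.387 CPM in the control and 0.861 ± 0.544 CPM in the Best1-Nrf2 eyes (log2 fold change 0.34, adjusted p = 0.904, edgeR). Of the 31-base words in the exons of *Gas6*, 0.278% also occurred in another gene.

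The other ligand, *Pros1* (ENSMUSG00000022912, chr16:62854307-62929346, plus strand), encodes protein S, which is also an anticoagulant of plasma. It ranged from 6.61 to 27.1 CPM with a median of 16.2 CPM in the control eyes, and from 5.54 to 28.6 CPM with a median of 22.8 CPM in the Best1-Nrf2 eyes. The groups covered nearly the same range, and the treated eye was higher in 5 of 9 mice. The paired fit gave a log2 fold change of 0.28 (SE 0.23, 95% interval -0.23 to 0.78, adjusted p = 0.737, edgeR). The lowest level in both groups was in mouse 8.

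The ratio of *Gas6* to *Pros1* within an eye does not depend on how libraries are scaled. Its log2 value rose from 3.95 ± 0.38 in the control to 5.07 ± 1.05 in the Best1-Nrf2 eyes (SD, n = 9), a within-mouse change of 1.12 ± 1.05, in 7 of 9 mice. The exact sign-flip permutation test over mice gave p = 0.0195 and an adjusted p = 0.117 over the 6 ratios compared, so this difference did not pass. The smallest p this test can give over 9 mice is 0.0039. Per exon length, *Gas6* made up 96.04% ± 1.00 of the summed level of both ligands in the control and 97.6% ± 2.15 in the Best1-Nrf2 eyes.

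*Mertk* (ENSMUSG00000014361, chr2:128698956-128802894, plus strand, 19 exons) encodes the ingestion receptor of the RPE. In the control eyes of mice 1 to 9 it stood at 150, 59.3, 30.6, 55.1, 36.4, 53.6, 44.0, 17.3 and 115 CPM. Their Best1-Nrf2 eyes stood at 49.2, 57.6, 30.9, 36.0, 29.9, 25.2, 38.4, 12.5 and 54.7 CPM. The 2 control eyes far above the rest were those of mice 1 and 9, and no treated eye exceeded 57.6 CPM. The mean was 62.4 ± 42.8 CPM in the control and 37.2 ± 14.6 CPM in the Best1-Nrf2 eyes.

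The log2 fold change of *Mertk* was -0.59 (SE 0.19, 95% interval -1.004 to -0.18), with an unadjusted p = 0.00845 in edgeR's quasi-likelihood test and an adjusted p = 0.135. It did not pass under any of 21 alternative settings, with adjusted p-values from 0.0551 upward. Without mouse 1 the log2 fold change was -0.42 (adjusted p = 0.341, edgeR). The differences within mice ran from -1.61 in mouse 1 to 0.01 in mouse 3.

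The level of *Mertk* was also set against the RPE markers of the same eye. The log2 ratio of *Mertk* to the mean of the 20 RPE markers was -3.36 ± 0.57 in the control and -3.46 ± 0.54 in the Best1-Nrf2 eyes. The within-mouse change was -0.10 ± 0.53, higher in 4 of 9 mice (exact sign-flip permutation test, p = 0.582). Of the 20 markers 5 were themselves called lower, and the median log2 fold change of the list was -0.32. The ratio therefore sets *Mertk* against a mean that also moved, and *Mertk* per RPE cell cannot be read from it. With the RPE markers as covariate the log2 fold change of *Mertk* was -0.30, and with the macrophage and microglia markers it was -0.97. *Mertk* shared none of its 31-base words with another gene, and the antisense gene *Gm14011* within it reached at most 0.498 CPM in any library.

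*Axl* (ENSMUSG00000002602, chr7:25757273-25788705, minus strand) encodes the TAM receptor that binds Gas6 but not protein S. It ranged from 10.9 to 48.8 CPM with a median of 30.5 CPM in the control, and from 8.93 to 48.5 CPM with a median of 29.0 CPM in the Best1-Nrf2 eyes. The highest control level and the lowest treated level both belonged to mouse 6, whose difference of -2.44 on the log2 scale stood against a range of -0.59 to 1.499 in the other mice. Its log2 fold change was 0.05 (SE 0.33, 95% interval -0.67 to 0.77, adjusted p = 0.980, edgeR), and it was 0.31 without mouse 6.

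*Tyro3* (ENSMUSG00000027298, chr2:119797733-119818104, plus strand), the remaining TAM receptor, ranged from 10.9 to 62.3 CPM with a median of 18.9 CPM in the control eyes. After Best1-Nrf2 it ranged from 10.9 to 78.0 CPM with a median of 23.6 CPM. Mice 1, 2 and 9 held the 3 highest treated levels, from 60.3 to 78.0 CPM, and in mouse 1 the control eye was as high. Between groups, the log2 fold change was 0.24 (SE 0.31, 95% interval -0.45 to 0.92, adjusted p = 0.866, edgeR), with 5 of 9 mice higher.

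**Figure D2:**
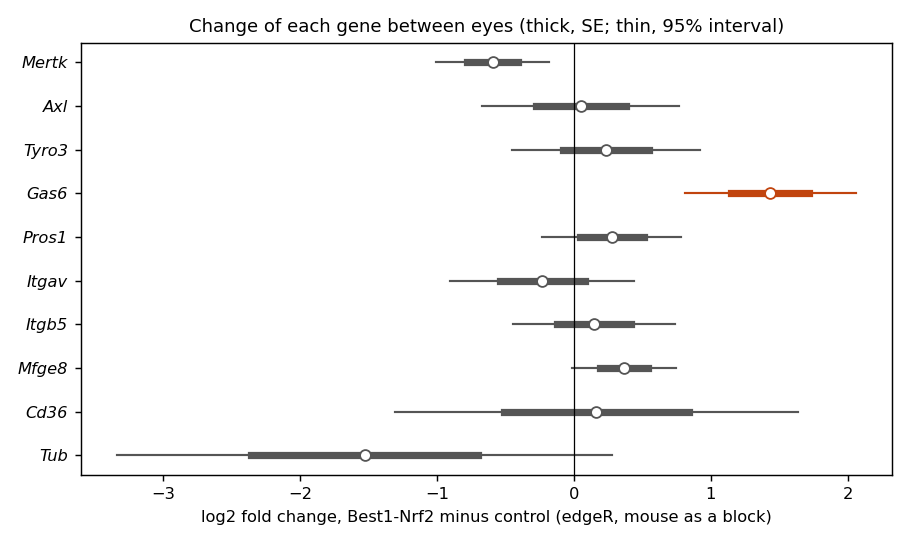
Log2 fold change of each gene, Best1-Nrf2 minus control, from edgeR with mouse as a block. Points are estimates, thick bars the SE and thin bars the 95% interval; the interval lies wholly above 0 for *Gas6* (orange, adjusted p under 0.05) and wholly below 0 for *Mertk*, whose adjusted p was 0.135.

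Per exon length, *Mertk* made up 56.5% ± 12.2 of the summed TAM receptor level in the control and 44.2% ± 8.92 in the Best1-Nrf2 eyes (SD, n = 9), with the share higher in 2 of 9 mice. *Axl* made up 26.2% ± 10.99 and 30.5% ± 9.52, and *Tyro3* 17.3% ± 2.94 and 25.3% ± 8.35. The within-mouse change in the log2 ratio of *Tyro3* to *Mertk* was 0.83 ± 0.95, higher in 7 of 9 mice (exact sign-flip permutation test, p = 0.0430, adjusted p = 0.129). That of *Axl* to *Mertk* was 0.61 ± 1.01, higher in 8 of 9 mice (exact sign-flip permutation test, p = 0.0820, adjusted p = 0.164). Neither passed after adjustment. Without mouse 6 these changes were 0.97 and 0.85 and that of *Gas6* to *Pros1* was 1.35, each with an adjusted p = 0.0469 in the same exact permutation test. None of the 3 passed when any other single mouse was omitted (adjusted p-values from 0.0938 to 0.328), nor without mice 6 and 8 (adjusted p = 0.0625 for each).

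The summed TAM receptor level was 24.5 ± 13.7 CPM per kb of exon in the control and 19.9 ± 8.99 CPM per kb in the Best1-Nrf2 eyes. *Gas6* stood at 4.47 ± 1.46 times this sum in the control, from 2.23 to 6.30 times. In the Best1-Nrf2 eyes it stood at 14.4 ± 6.21 times the sum, from 7.61 to 25.9 times, and it was higher in 9 of 9 mice. The groups did not overlap in this ratio of ligand to receptor transcripts, mouse 6 included, in which *Gas6* and all 3 receptors were lower in the treated eye. The ratio was formed after the levels had been seen, and no test was made on it.

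The integrin that tethers outer segments was not called in either subunit. *Itgav* (ENSMUSG00000027087, chr2:83724397-83806916, plus strand), the αv chain, ranged from 136 to 508 CPM with a median of 213 CPM in the control eyes, and from 98.6 to 623 CPM with a median of 206 CPM in the Best1-Nrf2 eyes. The treated eyes of mice 3 and 6 were far above the others, at 623 and 453 CPM against at most 258 CPM. In the paired test the log2 fold change was -0.23 (SE 0.31, 95% interval -0.91 to 0.44, adjusted p = 0.865, edgeR). Of its 31-base words, 5.63% also occurred in another gene, and *Gm13684*, which overlaps it on the opposite strand, averaged 1.397 CPM in the control eyes.

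*Itgb5* (ENSMUSG00000022817, chr16:33829665-33949338, plus strand), the β5 chain, ranged from 67.9 to 410 CPM with a median of 170 CPM in the control and from 71.1 to 358 CPM with a median of 226 CPM in the Best1-Nrf2 eyes. The treated eyes of mice 3, 6 and 8 held at most 92.3 CPM and the other 6 at least 222 CPM. The log2 fold change was 0.15 (SE 0.27, 95% interval -0.45 to 0.74, adjusted p = 0.918, edgeR). Of its 31-base words, 7.86% occurred in another gene. The log2 ratio of *Itgb5* to *Itgav* changed by 0.36 ± 1.70 (exact sign-flip permutation test, p = 0.523), from -3.32 in the lowest mouse to 3.08 in the highest.

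The αv chain also pairs with other β chains. Per exon length, *Itgb8*, *Itgb5* and *Itgb1* each made up a large part of the summed level of 5 such partners in the control eyes, at 36.7% ± 10.4, 34.2% ± 11.9 and 27.7% ± 15.98. *Itgb6* took 1.25% and *Itgb3* 0.0928%. In the Best1-Nrf2 eyes *Itgb5* took 39.5% ± 14.7, *Itgb1* 31.1% ± 18.8 and *Itgb8* 28.4% ± 8.64. The share of *Itgb8* was lower in 8 of 9 mice, that of *Itgb5* higher in 6 of 9 and that of *Itgb1* higher in 7 of 9, and these shares were not tested. *Itgb1* also pairs with chains other than αv, so its share is that of the transcripts and not of αv dimers.

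*Mfge8* (ENSMUSG00000030605, chr7:79133768-79149060, minus strand) encodes the secreted bridge between αvβ5 and phosphatidylserine. It ranged from 52.9 to 199 CPM with a median of 116 CPM in the control eyes, and from 80.5 to 203 CPM with a median of 150 CPM in the Best1-Nrf2 eyes. The treated eyes were packed more closely than the control eyes, with 8 of the 9 between 132 and 203 CPM. The paired fit gave a log2 fold change of 0.36 (SE 0.17, 95% interval -0.02 to 0.75, adjusted p = 0.421, edgeR), with 7 of 9 mice higher. The log2 ratio of *Mfge8* to *Itgb5* changed by 0.23 ± 0.97 (exact sign-flip permutation test, p = 0.523).

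*Cd36* (ENSMUSG00000002944, chr5:17781690-17888801, minus strand) encodes a scavenger receptor for oxidised lipids on outer segments, found also on macrophages and endothelium. It was the least abundant gene of the control eyes per exon length, with 7 to 158 counts in a library. Its levels ran from 0.186 to 3.28 CPM with a median of 0.715 CPM in the control and from 0.180 to 4.41 CPM with a median of 1.17 CPM in the Best1-Nrf2 eyes. Its log2 fold change was 0.16 with a wide interval (SE 0.68, 95% interval -1.31 to 1.63, adjusted p = 0.966, edgeR), which takes in a change of 2 times in either direction. The within-mouse changes ran from -2.71 to 3.13 on the log2 scale.

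*Tub* (ENSMUSG00000031028, chr7:108950338-109034460, plus strand) encodes tubby, a relative of Tulp1 and another bridge to MerTK. In the control eyes it ranged from 1.67 to 13.5 CPM with a median of 2.56 CPM. After Best1-Nrf2 it ranged from 0.280 to 12.1 CPM with a median of 0.749 CPM. The treated eyes of mice 2 and 6 stood at 12.1 and 8.38 CPM, and the other 7 at no more than 2.89 CPM. Between groups, the log2 fold change was -1.53 (SE 0.83, 95% interval -3.33 to 0.27, adjusted p = 0.501, edgeR), with 3 of 9 mice higher. Of its 31-base words 13.7% occurred elsewhere, and *Ric3*, which overlaps it on the opposite strand, stood at 29.4 CPM in the control and 22.6 CPM in the Best1-Nrf2 eyes.

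**Figure D3:**
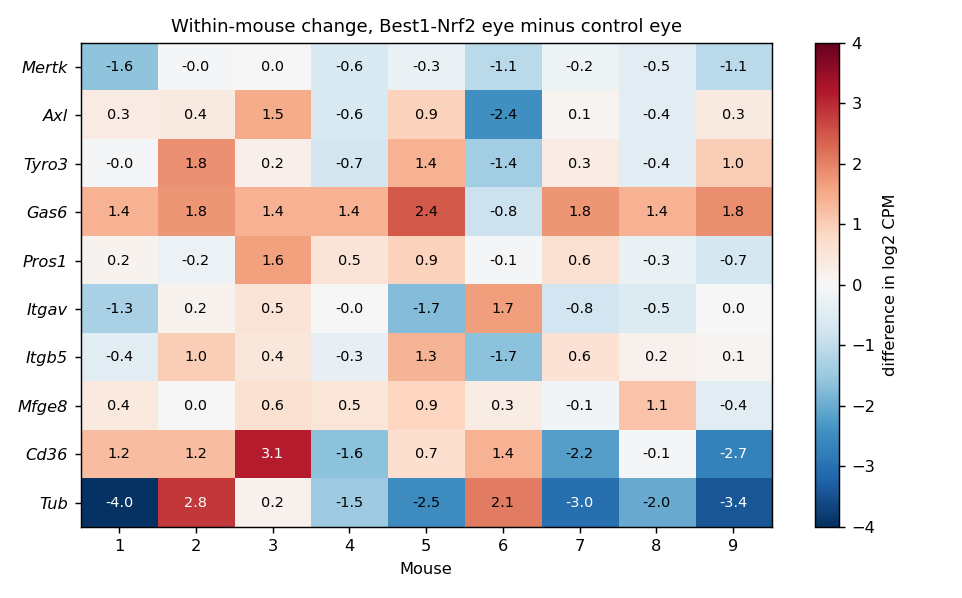
Difference in log2 CPM between the Best1-Nrf2 and the control eye for each gene (rows) in each mouse (columns), in colour and as numbers. *Gas6* is above 1 in every mouse but mouse 6, in which it is -0.8, and *Cd36* and *Tub* swing widest between mice.

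Mice differed in how many of the 10 genes were higher in the treated eye, from 3 in mice 4 and 8 to 10 in mouse 3. In mouse 6, *Axl*, *Tyro3*, *Gas6* and *Itgb5* each had their lowest within-mouse change and *Itgav* its highest. These are the changes of 1 pair of eyes and share 1 pair of libraries.

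Compared per exon length, the order of the 10 genes was nearly the same in both groups. In the control eyes *Gas6* led with 100 ± 42.7 CPM per kb, followed by *Itgb5* with 56.8 ± 34.0, *Mfge8* with 25.9 ± 10.2, *Itgav* with 25.03 ± 12.1 and *Mertk* with 14.4 ± 9.88 CPM per kb. *Axl*, *Tyro3* and *Pros1* stood at 5.78 ± 2.39, 4.35 ± 2.74 and 4.02 ± 1.76 CPM per kb, and *Tub* and *Cd36* at 0.494 ± 0.489 and 0.319 ± 0.260 CPM per kb. In the Best1-Nrf2 eyes *Gas6* led with 279 ± 135 CPM per kb, followed by *Itgb5* with 60.9 ± 31.2 CPM per kb. The order there differed only in *Cd36*, at 0.433 ± 0.452, standing above *Tub*, at 0.353 ± 0.511 CPM per kb.

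Neighbours in this order were compared within eyes by the exact sign-flip permutation test, adjusted over 18 pairs. The order came from the same libraries, so the pairs and their direction were not set in advance. Exon length covers all transcripts of a gene, and the test does not measure error from that length. *Mfge8* and *Itgav* did not differ beyond their spread in the control (adjusted p = 0.953) or in the Best1-Nrf2 eyes (adjusted p = 0.200). *Axl* and *Tyro3* did not differ either, with adjusted p = 0.0575 and 0.469 in the same permutation test, nor did *Tyro3* and *Pros1*, with 0.953 in both groups. The levels of *Tub* and *Cd36* also overlapped, with adjusted p = 0.469 and 0.188. For the other neighbours the adjusted p-values of this test ran from 0.0117 to 0.0492, and *Gas6* exceeded *Itgb5* in 9 of 9 eyes of each group.

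**Figure D4:**
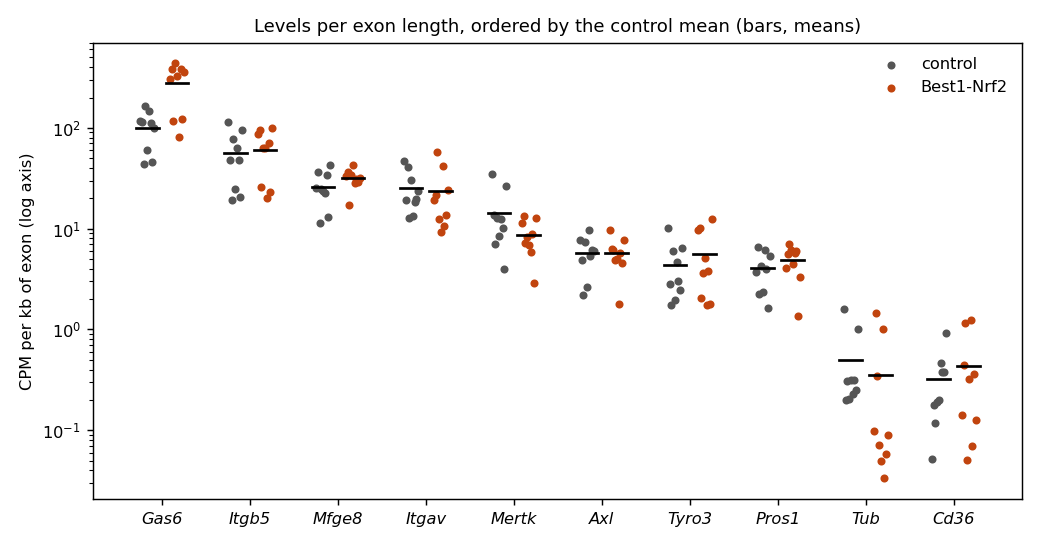
Level of each gene in CPM per kb of exon on a log axis, in the control (grey) and Best1-Nrf2 (orange) eyes, ordered by the control mean. Points are eyes and bars group means; *Gas6* leads in both groups and *Tub* and *Cd36* stand below 2 CPM per kb in every eye.

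The genes whose within-mouse changes lay closest to those of *Gas6* and *Mertk* were sought among the 11787 genes whose log2 CPM averaged 2 or more, by the root mean square difference over the 9 mice. For *Gas6* these were *Abhd4* (0.373), *Ccng1* (0.448) and *Gga2* (0.462), which rose by 1.22, 1.45 and 1.37 on the log2 scale with adjusted p-values of 0.0290, 0.0153 and 0.0175 (edgeR). For *Mertk* they were *Vasn* (0.245), *Fam189a2* (0.258) and *Gpr146* (0.265), with log2 fold changes of -0.60, -0.48 and -0.46, and none of these 3 passed. The likeness is over 9 pairs that share their libraries and is given as a description. These genes were picked for their nearness, so their fold changes and adjusted p-values follow from that choice and add no support.

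Of 64 other genes of outer segment uptake and digestion, 62 were tested, of which 5 rose and 1 fell, or 9.68% beside 4.25% of all genes. DESeq2 and limma each called 7 of the 62, beside 1478 and 1426 of all 18958 genes. Their median log2 fold change was 0.07. With 1 mouse omitted, 3 to 5 genes rose, and it was 3 without each of mice 1, 3, 4, 5, 7, 8 and 9. The gene that fell was *Tulp1*, which encodes the tubby relative that bridges outer segments to MerTK and is also a protein of photoreceptors. Its median went from 29.4 CPM, in a range of 6.35 to 91.9 CPM, to 1.79 CPM, in a range of 0.953 to 16.4 CPM (log2 fold change -3.21, SE 0.56, adjusted p = 0.00551, edgeR), lower in 8 of 9 mice, mouse 6 being the exception. Its change ran beside that of the cone markers, of which 10 of 11 fell. Among the 17 other bridges and uptake receptors tested, *Tulp1* was the only one to pass, and the median log2 fold change was -0.09.

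Among 25 genes of uptake signalling and the cytoskeleton, *Elmo1* alone passed. That count is near the share of all genes tested that passed, 4.25%. *Elmo1* encodes a partner of Dock1 that activates Rac during engulfment. It went from 8.42 ± 3.52 to 21.95 ± 10.5 CPM (log2 fold change 1.32, SE 0.22, adjusted p = 0.00358, edgeR), higher in 9 of 9 mice. *Elmo2*, *Dock1* and *Rac1*, of the same complex, had log2 fold changes of 0.02, -0.15 and -0.0043 and did not pass. *Ptk2*, the kinase that acts below αvβ5, stood at -0.16, and *Myo7a*, the myosin that carries phagosomes in the RPE, at -0.13, and neither passed.

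Of 20 genes of phagosome transport and digestion, 4 passed and all 4 rose, where 3.12% of all genes tested rose. *Ctsd*, a major lysosomal protease of the RPE, went from 3582 ± 1323 to 15648 ± 7079 CPM (log2 fold change 2.06, SE 0.26, adjusted p = 0.000627, edgeR), and its groups did not overlap. *Ctss*, a cathepsin also abundant in macrophages, went from 26.01 ± 9.49 to 73.7 ± 38.2 CPM (log2 fold change 1.37). *Lipa*, the lysosomal acid lipase, rose by 0.86 and *Lamp2*, a lysosomal membrane protein, by 0.74 on the log2 scale, each in 8 of 9 mice. The genes of the LC3-associated steps *Rubcn*, *Atg5* and *Map1lc3b* had log2 fold changes of 0.32, 0.09 and 0.12 and did not pass. The changes of *Ctss* and *Elmo1* stood beside the rise in macrophage and microglia markers, of which *Cx3cr1* went from 3.77 ± 1.21 to 13.2 ± 7.22 CPM while *Csf1r* went from 136 ± 122 to 59.6 ± 33.9 CPM without passing (adjusted p = 0.113, edgeR). With the rod and cone markers as covariate 0 of these 62 genes passed, with the macrophage and microglia markers 0 and with the RPE markers 2. In the same order, these fits called 29, 23 and 234 of all 18958 genes.

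**Figure D5:**
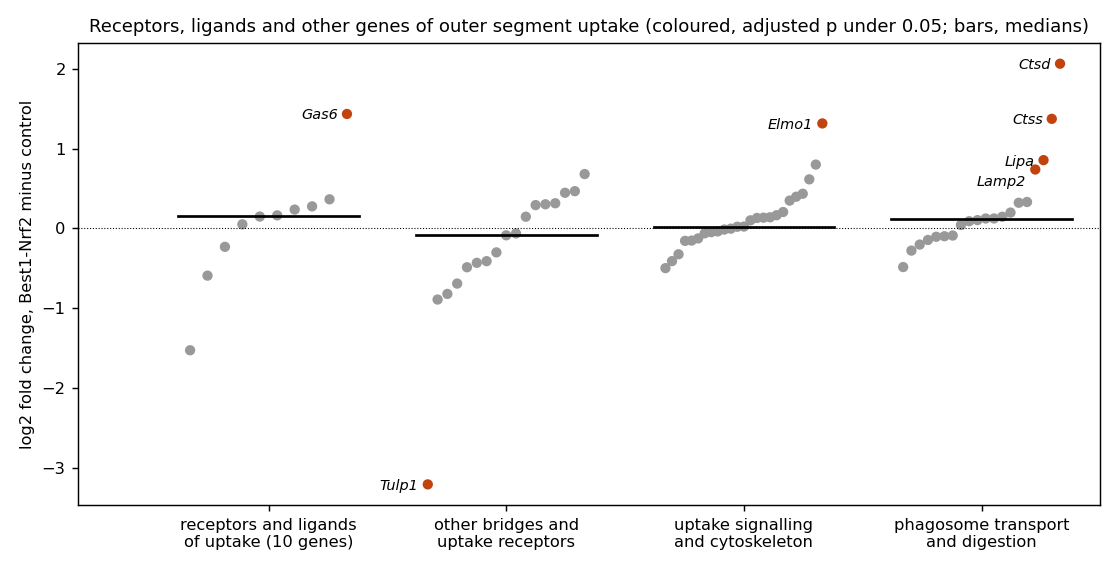
Log2 fold change, Best1-Nrf2 minus control, of the 10 receptors and ligands and of 3 lists of other uptake genes. Each point is a gene, genes with an adjusted p under 0.05 are coloured and named, and bars mark medians, all of which lie between -0.09 and 0.16.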

How the data were processed

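RNA of the RPE was measured in 18 eyecups of 9 *rd1* mice. The retina was removed, RNA of the cells released from the eyecup was amplified, poly(A) libraries were made, and the 2 sequencing runs were not labelled per library. The authors deposited estimated counts per gene, which are not whole numbers, from the bcbio pipeline with the mm10 genome and Ensembl annotation. The submitters' processing notes name FastQC and Salmon 0.8.1. Which counter made the table is not given in the sources used here. No molecular identifiers were used.

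Samples were grouped by the treatment label and paired by the individual label, which marks the mouse, and same-numbered eyes correlated with a median of -0.00095 (range -0.37 to 0.64) in their deviations. The study's methods describe fewer pairs than the labels, and all labelled pairs were used. No 2 of the 72 within-group library pairs agreed within sampling noise. The counts were rounded, filtered with filterByExpr, scaled by TMM and tested in edgeR 4.0.16 (R 4.3.3) with the quasi-likelihood F test, mouse as a block, Benjamini-Hochberg adjustment and a threshold of 0.05. Log2 CPM used a prior count of 2. Alternatives used DESeq2 1.42.0 and limma 3.58.1 (voom with sample weights), other scalings and filters, a threshold of 0.1, no block, marker covariates and omitted mice. Ratios were tested by the 2-sided exact sign-flip permutation test over mice, and without the block by a permutation test that ignored the pairing. Levels between genes were compared per kb of exon in GENCODE on GRCm38, which also gave gene positions, and upstream sequences came from RefSeq (GRCm38.p6). The fits were also run on simulated data, and the outcome is not given here. The text names all 10 genes, the pathway genes past the threshold, the first markers of the lists that differed and the 3 genes nearest in change to *Mertk* and to each gene called. Other pathway genes named were chosen after their values were seen. The genes and lists were chosen with earlier results of these data known.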

Additional observations from a re-analysis of the deposited data

Results flagged for a closer look

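Each of the 10 genes in both groups, and the within-mouse change of each of 6 ratios, was screened for a library far from the rest of its group, by the gap to its nearest neighbour as a share of the whole range. Of 26 groups screened, 3 held such a library, where chance gives about 1 in 20, or 1.3. *Axl* in the Best1-Nrf2 eye of mouse 6 had a log2 CPM of 3.17, from 308 counts, against 4.53 in the next eye. *Pros1* in the Best1-Nrf2 eye of mouse 8 had a log2 CPM of 2.48, from 171 counts, against 3.75 in the next. *Mfge8* in the Best1-Nrf2 eye of mouse 3 had a log2 CPM of 6.33, from 2087 counts, against 7.04 in the next. The 3 libraries were different ones, and each was the lowest of its group.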

How the results depend on the processing

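The call of *Gas6* held in 18 of 21 alternative settings. These include the main fit read at a threshold of 0.1, and fits that omit mice and share the remaining pairs. The call was lost with rod and cone, RPE or macrophage marker covariates, each of which called 0 of the 10 genes. The adjusted p of *Gas6* ran from 9.97e-06 (DESeq2) to 0.999. With those covariates 0, 2 and 0 of the 62 other uptake genes passed, and 29, 234 and 23 of all genes, while DESeq2 called 1478 and limma 1426. Of the uptake genes, 0 fell with any of the 3 covariates. Omitting 1 mouse gave 540 to 1046 calls over all genes, 1 of the 10 genes each time, 4 to 6 of the 62 uptake genes, 3 to 5 of them higher, and log2 fold changes of *Gas6* from 1.31 to 1.68, of *Axl* up to 0.31, of *Itgb5* up to 0.35 and of *Cd36* up to 0.54. It gave 0.037 (without mouse 2) to 0.44 (without mouse 6) for *Tyro3*, -0.45 (without mouse 6) to -0.042 (without mouse 1) for *Itgav*, and 0.15 (without mouse 3) to 0.40 (without mouse 9) for *Pros1*, none of them called. Without the replicate block *Gas6* had a log2 fold change of 1.48 (adjusted p = 0.0167, edgeR), *Mertk* -0.75 (adjusted p = 0.424), and 742 genes were called. Without the block the changes in the ratios of *Tyro3* to *Mertk*, 0.83, and of *Gas6* to *Pros1*, 1.12, passed (adjusted p = 0.0355). That permutation test ignored the pairing and is not the sign-flip test over mice. Of the uptake genes 5 passed without the block against 6 with it, 4 of them higher against 5, and the number called of the 10 genes stayed at 1.

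Omitting 1 mouse, the change in log2 ratio ran from 0.44 to 0.85 for *Axl* to *Mertk*, from 0.68 to 0.97 for *Tyro3* to *Mertk* and from 0.94 to 1.35 for *Gas6* to *Pros1*. It ran from 0.017 (without mouse 5) to 0.82 (without mouse 6) for *Itgb5* to *Itgav*, from 0.014 (without mouse 6) to 0.38 (without mouse 2) for *Mfge8* to *Itgb5*, and from -0.20 (without mouse 2) to -0.0074 (without mouse 8) for *Mertk* to the RPE markers, none of them called. Without mice 6 and 8, chosen after seeing the data, the ratio of *Mfge8* to *Itgb5* changed by -0.12 and that of *Mertk* to the RPE markers by 0.044, each a reversed sign without a call. Several genes that were not called changed sign as well. *Axl* had log2 fold changes of -0.0062 without the block, -0.0019 with upper-quartile scaling, -1.64, -0.044 and -0.081 with rod and cone, RPE and macrophage covariates, and -0.10 and -0.06 without mice 3 and 5. In the same order of covariates *Tyro3* had -1.20, -0.25 and -0.11. *Itgav* had 0.61 and 0.0085, and *Itgb5* -0.92 and -0.39, with rod and cone and with macrophage covariates, and *Itgb5* had -0.0012 without mouse 5. *Cd36* had -0.21 with limma, -0.029 with the RPE covariate, -0.03, -0.18 and -0.05 without mice 2, 3 and 6, and -0.047 without mice 6 and 8. *Tub* had 0.76 with the rod and cone covariate. The cause of these shifts was not tested. *Mertk*, *Pros1* and *Mfge8* kept their direction in all 21 settings. *Cd36* and *Tub* had as few as 7 and 10 counts in a library, and the SD of their within-mouse log2 changes was 1.94 and 2.43. How far depth limits them was not tested.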
